A study of Mus musculus with 8 samples.

Results

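Expression of 42 neuronal and synaptic vesicle genes was examined in cultured brain cells of wild type mice and of mice that carry the S89G form of dentin matrix protein 1 (S89G-DMP1). All 42 were found by symbol and Ensembl identifier, among 47729 genes in the count table of neural stem cells (NSCs) and 40562 genes in that of astrocytes. The genes were chosen with results of both genotype comparisons known, so their fold changes describe the set and their number of changed members is no evidence about it. DMP1 is a secreted phosphoprotein best known from bone and dentin, and the S89G change removes the serine at which its proteoglycan form carries a glycosaminoglycan chain.

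RNA sequencing was performed on 8 libraries of total RNA. NSCs were grown as neurospheres in DMEM/F12 with N2 supplement from the sub-ventricular zone, with 3 WT and 3 S89G-DMP1 libraries. Astrocytes were grown from the cortex in DMEM with 10% serum, with 1 WT and 1 S89G-DMP1 library. The labels give all animals as C57BL/6 of 10 weeks of age, and no agent or second allele is named for any group. The NSC libraries are labelled as triplicates, and nothing says that they came from separate animals or cultures, so that p-values measure only the spread between these libraries, which may be technical. For genes with a mean of 10 or more counts, a chi-square per gene was taken between NSC libraries, which counting error alone puts near 1. It was 1.07 to 1.51 within a genotype and 3.17 to 4.06 between genotypes. The astrocyte comparison has no replicate check, and the 2 cell types were counted in separate tables, so no value was tested between them.

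Neurons release transmitter when synaptic vesicles, held near the membrane by synapsins and Rab proteins, fuse through SNARE proteins after a synaptotagmin has sensed calcium. Neuropeptides leave from larger dense-core vesicles that hold granins. Neurexins on the sending side and neuroligins on the receiving side align the membranes, and scaffolds such as PSD-95 and the kinase CaMKII organise the receiving side. The stem cells of the sub-ventricular zone give rise to neuroblasts, and many of these genes are also read at low or moderate levels in dividing precursors and glia.

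NSC libraries held 2354615 to 2588130 counted reads, and the astrocyte libraries 13016924 (S89G-DMP1) and 14008670 (WT). Dmp1 itself was counted 18, 21 and 16 times in the WT NSCs and 6, 3 and 5 times in the S89G-DMP1 NSCs, while the astrocyte libraries held 2 counts in WT and 119 in S89G-DMP1. The 12 neuron markers summed to 111 to 121 CPM (counts scaled to a common library size) in WT NSCs and to 107 to 120 in S89G-DMP1 NSCs, and Slc17a6, Slc32a1 and Neurod6, which define neurons of the glutamate and GABA types, were at 0 in all 6. In the astrocyte libraries the neuron markers summed to 14.8 CPM in WT and 18.9 in S89G-DMP1, and Slc32a1 and Neurod6 were at 0. Most astrocyte markers were low in the library labelled WT astrocytes, with 8 counts of Slc1a3, 8 of Aqp4 and 90 of Gfap against 3877, 4051 and 901 in the S89G-DMP1 library. Gja1 was well counted in both, at 1165 and 1913, and S100b was higher in WT, at 64 against 30. Fibroblast and meningeal markers summed to 5918 CPM in WT against 2141 CPM in S89G-DMP1 astrocytes, and microglia markers to 674 against 965 CPM.

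In NSCs, the vesicle and calcium-sensor genes, the synaptic adhesion genes and the single measurable dense-core vesicle gene were mostly lower in S89G-DMP1 cells, whereas the fusion machinery and the postsynaptic genes were for the most part not changed past the test. Reads of 35 of the 42 genes were high enough to be tested with edgeR's quasi-likelihood test. At an adjusted p under 0.05, 16 fell, 2 rose and 17 did not pass. Of all 11194 genes tested, 8.76% fell and 7.08% rose by the same rule. The 3 libraries of each genotype did not overlap for 20 genes that were lower in S89G-DMP1 and for 2 that were higher, where 16.0% and 14.8% of all tested genes behaved so. The median log2 fold change was -0.21 over the 35 genes and 0.00 over all genes tested. Summed over the 42 genes, the level was 6270 to 6529 CPM in WT against 5649 to 5731 CPM in S89G-DMP1 NSCs.

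**Figure D1:**
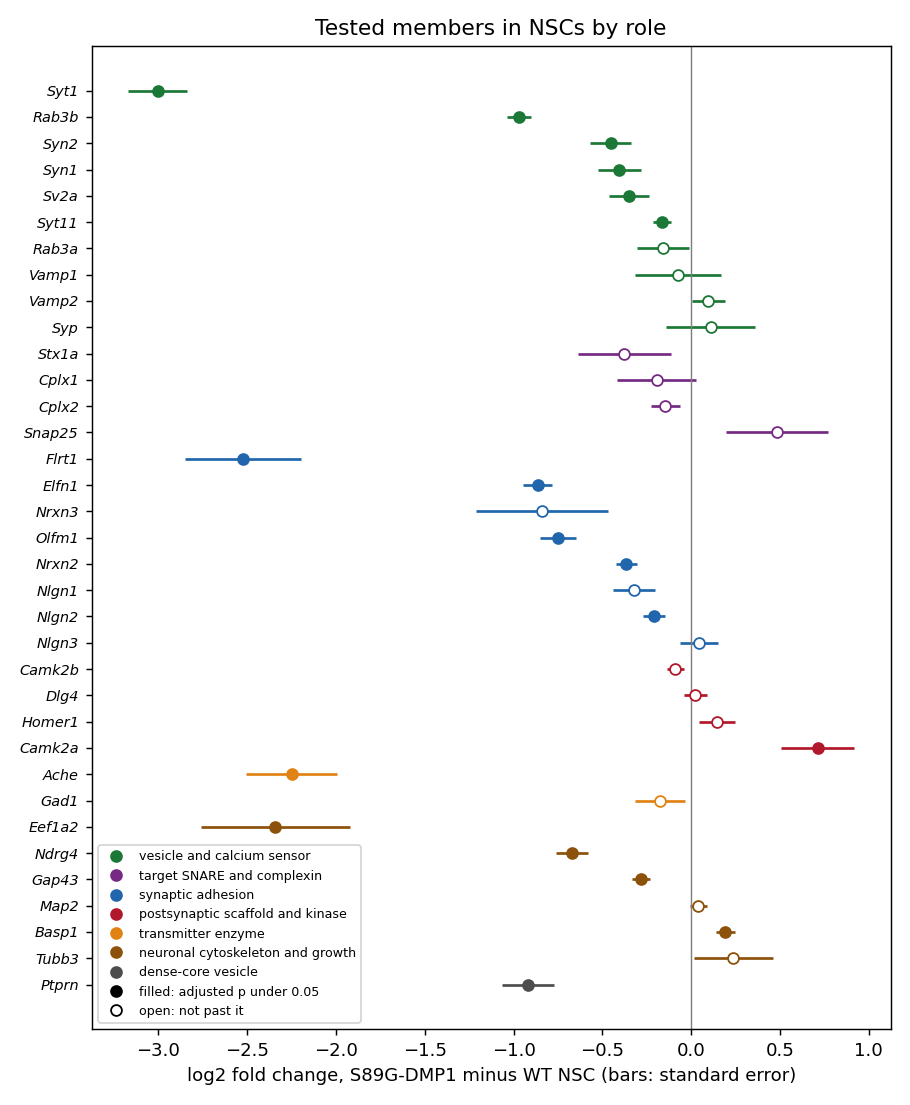
Log2 fold change of the 35 tested genes in NSCs, S89G-DMP1 minus WT (x axis), with bars of 1 standard error, grouped and coloured by role on the y axis; filled points had an adjusted p under 0.05. Filled points lie left of 0 for 16 genes, from -0.17 for Syt11 to -3.00 for Syt1, and right of 0 for Basp1 and Camk2a.

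Syt1, the calcium sensor of fast vesicle release (ENSMUSG00000035864, GRCm38 chr10:108497650-109010982, minus strand), changed most. It was counted 144, 169 and 146 times in the WT NSCs and 12, 22 and 21 times in the S89G-DMP1 NSCs. The groups were far apart, and Syt1 was 8.02-fold lower (log2 -3.00, SE 0.17), with an adjusted p of 1.33e-23 by edgeR's quasi-likelihood test. Its level was 61.5 ± 3.75 CPM in the WT group against 7.63 ± 2.29 CPM in the mutant group (SD, n = 3 each). In bulk RNA, fewer cells that express a gene and less of its RNA per cell cannot be told apart.

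Rab3b, a small GTPase of secretory vesicles (ENSMUSG00000003411, chr4:108879063-108943324), was counted 566, 648 and 624 times in WT and 290, 307 and 309 times in S89G-DMP1 NSCs. All 3 mutant libraries lay below every WT library, a fall of 1.96-fold (log2 -0.97, SE 0.07; adjusted p by edgeR's quasi-likelihood test 7.84e-19). Its relative Rab3a had 60, 78 and 71 counts in WT and 60, 54 and 67 in S89G-DMP1, which overlapped, with a log2 difference of -0.16 (SE 0.15).

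The synapsins, which tether vesicles to the cytoskeleton, fell together by smaller amounts. Syn2 had 129, 158 and 137 counts in WT and 97, 108 and 94 in S89G-DMP1 NSCs. Syn1 had 127, 121 and 112 counts in WT and 90, 81 and 92 in S89G-DMP1. Neither gene overlapped between genotypes, with log2 fold changes of -0.45 (SE 0.11) and -0.40 (SE 0.12). Sv2a, a vesicle membrane glycoprotein, went from 144, 146 and 128 counts to 102, 100 and 115 (log2 -0.35, SE 0.11), again without overlap. Syt11, a synaptotagmin that does not bind calcium, was counted 2146, 2189 and 2200 times in WT and 1816, 1816 and 2008 times in S89G-DMP1, a log2 fold change of only -0.17 (SE 0.05). By edgeR's quasi-likelihood test the adjusted p was 0.00233 for Syn2, 0.0124 for Syn1, 0.0208 for Sv2a and 0.0121 for Syt11.

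These smaller falls were sensitive to single libraries. Without S89G-DMP1 replicate 1 the edgeR adjusted p was 0.0722 for Syt11 and 0.0711 for Sv2a, and without S89G-DMP1 replicate 2 it was 0.0680 for Syt11, 0.0762 for Sv2a and 0.0627 for Syn1. Without WT replicate 1 it was 0.0983 for Sv2a and 0.0821 for Syn1, and without WT replicate 2 it was 0.0563 for Sv2a. DESeq2 gave adjusted p values of 0.261 for Sv2a, 0.206 for Syn1 and 0.0904 for Syn2. Syt1 and Rab3b passed in all 6 fits with 1 library left out and in DESeq2, and on log2(TPM + 0.1) limma gave an adjusted p of 0.0529 for Syt1 (log2 -2.76) and 0.00214 for Rab3b.

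Other vesicle proteins did not pass. Syp, the abundant vesicle protein synaptophysin, was at 24, 25 and 20 counts in WT and 14, 30 and 28 in S89G-DMP1 NSCs. Vamp2, the vesicle SNARE of most synapses, was at 159, 203 and 209 counts in WT and 177, 200 and 213 in S89G-DMP1. Both ranges overlapped, as did those of Vamp1, and the log2 differences were 0.11 (SE 0.25) for Syp, 0.10 (SE 0.09) for Vamp2 and -0.07 (SE 0.24) for Vamp1. An antisense transcript shares 16.8% of the annotated exon bases of Syp and was itself counted 0 times in NSCs. Of the 10 genes of vesicles and calcium sensing, 6 fell and 4 did not pass, and their summed level was 1460 to 1486 CPM in WT against 1129 to 1191 CPM in S89G-DMP1.

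**Figure D2:**
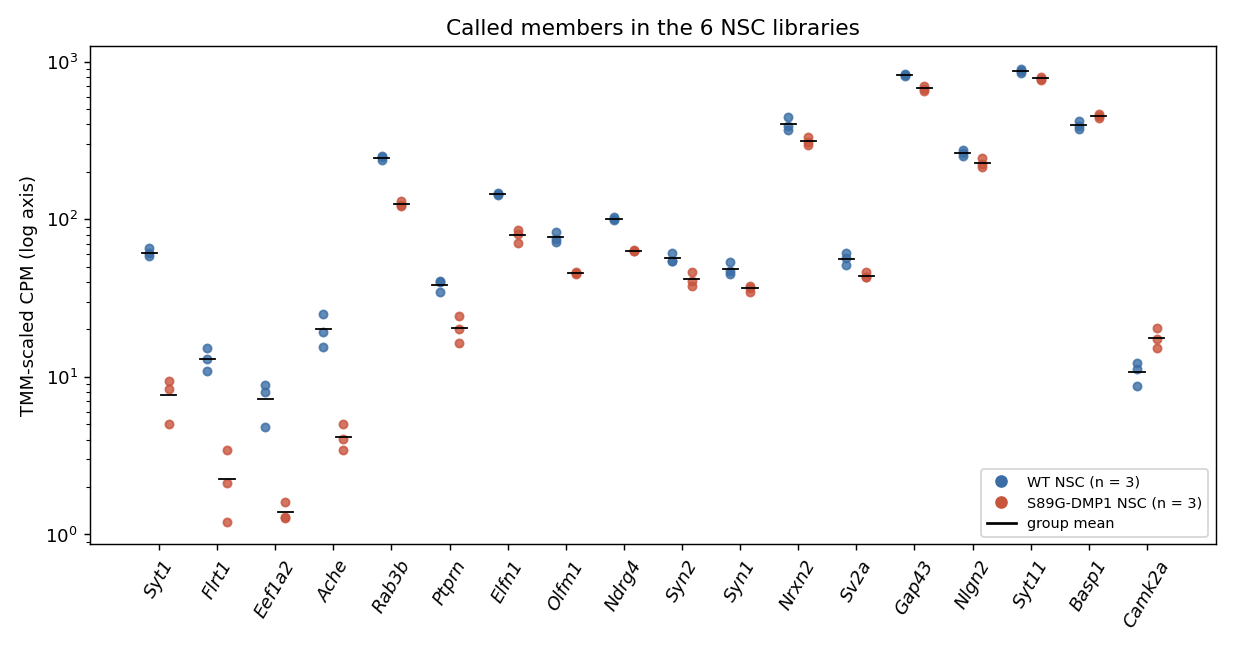
TMM-scaled CPM (y axis, log scale) of the 18 genes past the test in each of the 3 WT and 3 S89G-DMP1 NSC libraries, ordered by log2 fold change, with a line at each group mean. The points of the 2 genotypes do not overlap for any of the 18, which were picked by a test on these same libraries. Of all tested genes, 16.0% were lower and 14.8% higher in S89G-DMP1 without overlap. The widest gap is that of Syt1, from a mean of 61.5 down to 7.63 CPM.

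No change past the test was seen among the 4 genes of the fusion machinery on the target membrane. By edgeR's quasi-likelihood test 0 of the 4 were called, 0 had an unadjusted p under 0.05, and DESeq2 called 0. Snap25, the target SNARE, was counted 20, 11 and 14 times in WT and 22, 15 and 24 times in S89G-DMP1 NSCs (log2 0.48, SE 0.29). Stx1a, its syntaxin partner, had a log2 difference of -0.38 (SE 0.26), and the complexins Cplx1 and Cplx2, which bind the assembled SNARE complex, had -0.19 (SE 0.22) and -0.15 (SE 0.08). At these low counts, the standard errors of Stx1a and Cplx1 leave room for falls of the size seen in Syn1 and Syn2. That of Snap25 leaves room for a rise of that size.

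Synaptic adhesion genes fell in 5 of 8 cases. Flrt1, a leucine-rich repeat membrane protein (ENSMUSG00000047787, chr19:7092001-7105729), was counted 31, 28 and 38 times in WT and 5, 8 and 3 times in S89G-DMP1 NSCs. The groups did not overlap and the fall was 5.75-fold (log2 -2.52, SE 0.33; adjusted p by edgeR's quasi-likelihood test 9.28e-09). Elfn1, which recruits glutamate receptors of the presynaptic side across the cleft (ENSMUSG00000048988, chr5:139907943-139974722), went from 350, 365 and 362 counts to 169, 201 and 202. Its WT libraries lay between 142 and 147 CPM and its S89G-DMP1 libraries between 71.2 and 86.0 CPM, a log2 fold change of -0.86 (SE 0.08). Olfm1, a secreted olfactomedin, fell from 198, 194 and 180 counts to 107, 106 and 116 (log2 -0.75, SE 0.10).

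Neurexins and neuroligins moved less. Nrxn2 was counted 871, 1006 and 1122 times in WT and 788, 726 and 735 times in S89G-DMP1 NSCs, without overlap (log2 -0.36, SE 0.06). Nlgn2, the neuroligin of inhibitory synapses, had a log2 fold change of -0.21 (SE 0.06), with 265, 251 and 274 CPM in WT and 245, 225 and 213 CPM in S89G-DMP1. That call was lost without S89G-DMP1 replicate 2 (edgeR adjusted p 0.0660), without S89G-DMP1 replicate 3 (0.110) and without WT replicate 3 (0.0892), and DESeq2 gave an adjusted p of 0.124. Nlgn1 did not overlap between genotypes and missed the threshold (log2 -0.32, SE 0.12; adjusted p by edgeR's quasi-likelihood test 0.0564), which it passed at 0.0368 without S89G-DMP1 replicate 3. Nrxn3, at 13, 14 and 14 counts in WT and 11, 7 and 4 in S89G-DMP1, did not pass either (log2 -0.84, SE 0.37). Nlgn3 was nearly level (log2 0.04, SE 0.11), and 41.2% of its annotated exon bases are shared with another annotated transcript on the same strand, so that its counts are uncertain.

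Among the postsynaptic genes, Camk2a, which encodes the alpha subunit of CaMKII, rose. It was counted 29, 29 and 22 times in WT and 41, 48 and 38 times in S89G-DMP1 NSCs, without overlap, a log2 fold change of 0.71 (SE 0.20; adjusted p by edgeR's quasi-likelihood test 0.00940). The call was lost without S89G-DMP1 replicate 2 (edgeR adjusted p 0.0846) and without WT replicate 3 (0.0737), and DESeq2 gave 0.187. Camk2b, the beta subunit, was far more abundant, at 939 to 956 CPM in WT against 852 to 915 CPM in S89G-DMP1, and did not pass (log2 -0.09, SE 0.05). The scaffolds Dlg4 (PSD-95) and Homer1 overlapped between genotypes, with log2 differences of 0.02 (SE 0.06) and 0.15 (SE 0.10).

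Ache, the enzyme that breaks down acetylcholine (ENSMUSG00000023328, chr5:137287519-137294466), was counted 46, 40 and 63 times in WT and 12, 8 and 10 times in S89G-DMP1 NSCs. The lowest WT count lay well above the highest S89G-DMP1 count, and the fall was 4.76-fold (log2 -2.25, SE 0.26; adjusted p by edgeR's quasi-likelihood test 1.89e-10). Gad1, an enzyme of GABA synthesis, was at 30.0 to 30.8 CPM in WT against 25.7 to 28.5 CPM in S89G-DMP1, which did not overlap but did not pass (log2 -0.18, SE 0.14). Gad2, the other such enzyme, had at most 5 counts in any NSC library and was not tested.

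Cytoskeletal and growth-cone genes split. Eef1a2, the translation elongation factor isoform of neurons and muscle (ENSMUSG00000016349, chr2:181147653-181157014), was counted 19, 23 and 12 times in WT and 3, 3 and 4 times in S89G-DMP1 NSCs, a fall of 5.07-fold (log2 -2.34, SE 0.42). Gap43, a protein of growth cones (ENSMUSG00000047261, chr16:42248442-42340651), went from 1951, 2077 and 2105 counts to 1555, 1569 and 1754, without overlap (log2 -0.28, SE 0.05). Ndrg4, a cytoplasmic protein of neurons and heart, went from 244, 254 and 252 counts to 152, 148 and 156 (log2 -0.67, SE 0.09). Basp1, a growth-cone protein of the inner membrane face like Gap43, rose, with 376 to 421 CPM in WT against 440 to 462 CPM in S89G-DMP1 (log2 0.19, SE 0.06), a call lost without WT replicate 2 (edgeR adjusted p 0.0900). By edgeR's quasi-likelihood test the adjusted p was 1.93e-05 for Eef1a2, 1.30e-05 for Gap43, 2.32e-08 for Ndrg4 and 0.00939 for Basp1.

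For the classical markers of young neurons no call was made. Map2, a dendritic microtubule protein, was among the most abundant of the genes, at 1067 to 1221 CPM in WT against 1158 to 1183 CPM in S89G-DMP1 NSCs, and did not pass (log2 0.04, SE 0.05). Tubb3, the neuronal beta-tubulin, overlapped between genotypes (log2 0.24, SE 0.22). Dcx, a microtubule protein of migrating neuroblasts, had 5, 9 and 12 counts in WT and 1, 6 and 4 in S89G-DMP1, and Stmn2, a tubulin-binding protein of growing axons, had 1 count in 1 S89G-DMP1 library and 0 in the other 5. Both were too low to test, and the Dcx counts of the genotypes overlapped at low numbers.

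Of the dense-core vesicle genes, only Ptprn was counted often enough in NSCs to be tested. Ptprn, a membrane protein of secretory granules (ENSMUSG00000026204, chr1:75247027-75264502), had 82, 104 and 100 counts in WT and 58, 47 and 41 in S89G-DMP1. The genotypes did not overlap and the fall was 1.89-fold (log2 -0.92, SE 0.15; adjusted p by edgeR's quasi-likelihood test 2.14e-06). The granins Scg2, Chga and Chgb had at most 10 counts in any NSC library, and so did Vgf, a precursor of secreted peptides, so that a difference was not detectable at this depth.

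Compared per length, the NSCs expressed a few of these genes strongly. In the deposited TPM values, Gap43 was highest in WT, at 1505 ± 21.0 TPM (SD, n = 3), followed by Camk2b at 592 ± 16.2, Basp1 at 520 ± 34.1, Map2 at 460 ± 58.0 and Syt11 at 447 ± 78.0 TPM. The spreads of Basp1, Map2 and Syt11 overlapped. These TPM values do not follow the counts for every gene. Olig1 was at 0 TPM in all 6 NSC libraries with 5927 to 6547 counts in each, and Sox2 was at 0 TPM in 5 of the 6. By counts per length the order in WT was another, namely Gap43, Map2, Camk2b, Syt11 and Basp1. In S89G-DMP1 NSCs, Gap43 stood at 1194 ± 44.1 TPM (SD, n = 3) and remained first. Syt11 stood at 274 ± 154 TPM there, a wider spread than in its counts, and on log2(TPM + 1) limma passed 4 of the 16 genes that fell and 0 of the 2 that rose.

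The genes of the same pathways that are not among the 42 were split in direction. Of 248 listed, 247 were matched (all but Vamp7), 156 were tested, 28 fell, 13 rose, and the median log2 fold change was -0.06, where 8.76% of all tested genes fell and 7.08% rose. The share that rose, and several of the counts by list that follow, are near those of all genes. Among genes of the cytoskeleton and growth, 8 of 28 fell and 1 rose. Map1b, a microtubule protein of growing axons, had 736, 807 and 741 counts in WT and 322, 331 and 331 in S89G-DMP1 NSCs (log2 -1.17, SE 0.06), and Tubb4a, a beta-tubulin, had 172, 179 and 178 against 92, 92 and 86 (log2 -0.92, SE 0.11). Of 6 dense-core vesicle genes tested, 3 fell, namely Scg3 (log2 -0.53, SE 0.11), the peptide-amidating enzyme Pam (log2 -0.50, SE 0.07) and the carboxypeptidase Cpe (log2 -0.21, SE 0.05).

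In the release and active zone list, 2 of 28 fell and 1 rose. Dnm1, the dynamin of vesicle endocytosis, fell (log2 -0.76, SE 0.18). In the adhesion list 5 of 28 fell and 3 rose, among them Cadm4 downwards (log2 -0.40, SE 0.07) and Cadm3 upwards, from 13, 13 and 10 counts to 26, 29 and 25 (log2 1.19, SE 0.27). In the transmitter list 2 of 9 fell and 3 rose, led by the GABA transporter Slc6a11, from 236, 255 and 262 counts to 428, 458 and 461 (log2 0.89, SE 0.07). Of 16 neuronal fate factors tested, 3 fell, such as Dlx1 (log2 -1.42, SE 0.40), and 4 rose. In the remaining lists, 3 of 16 vesicle and calcium-sensor genes fell and 2 of 25 postsynaptic genes fell while 1 rose. Each of the genes named here passed edgeR's quasi-likelihood test at an adjusted p under 0.05, and Dlx1 lost its call without S89G-DMP1 replicate 2. DESeq2 gave adjusted p values of 0.172 for Dlx1, 0.0588 for Dnm1 and 0.0563 for Cadm3, and called 14 lower and 6 higher over all these lists.

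Markers of other cell types moved in the same NSC libraries. Astrocyte markers summed to 1699 to 1747 CPM in WT against 2213 to 2249 CPM in S89G-DMP1, with 3 of 7 tested markers risen. Of 6 oligodendrocyte-lineage markers tested, 2 fell, Pdgfra (log2 -0.84, SE 0.22) and Cspg4 (log2 -0.56, SE 0.07), and their sum overlapped between genotypes at 3758 to 4042 CPM in WT against 3843 to 4031 CPM in S89G-DMP1. NSC markers summed to 4285 to 4502 CPM in WT against 4698 to 4732 CPM in S89G-DMP1, with 3 of 8 tested markers risen and 1 fallen. Fabp7 went from a mean of 910 to 1337 CPM, more than the rise of the whole sum, while Notch1 fell (log2 -0.26, SE 0.06). Neuron markers overlapped between genotypes in sum, but of 4 tested Elavl3 fell (log2 -0.43, SE 0.11) and Elavl4 rose (log2 0.35, SE 0.11), the latter call held in 2 of 6 fits with 1 library left out. DESeq2 did not call Pdgfra, Elavl3 or Elavl4. Whether these shifts have a part in the changes of the vesicle and adhesion genes was not tested.

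**Figure D3:**
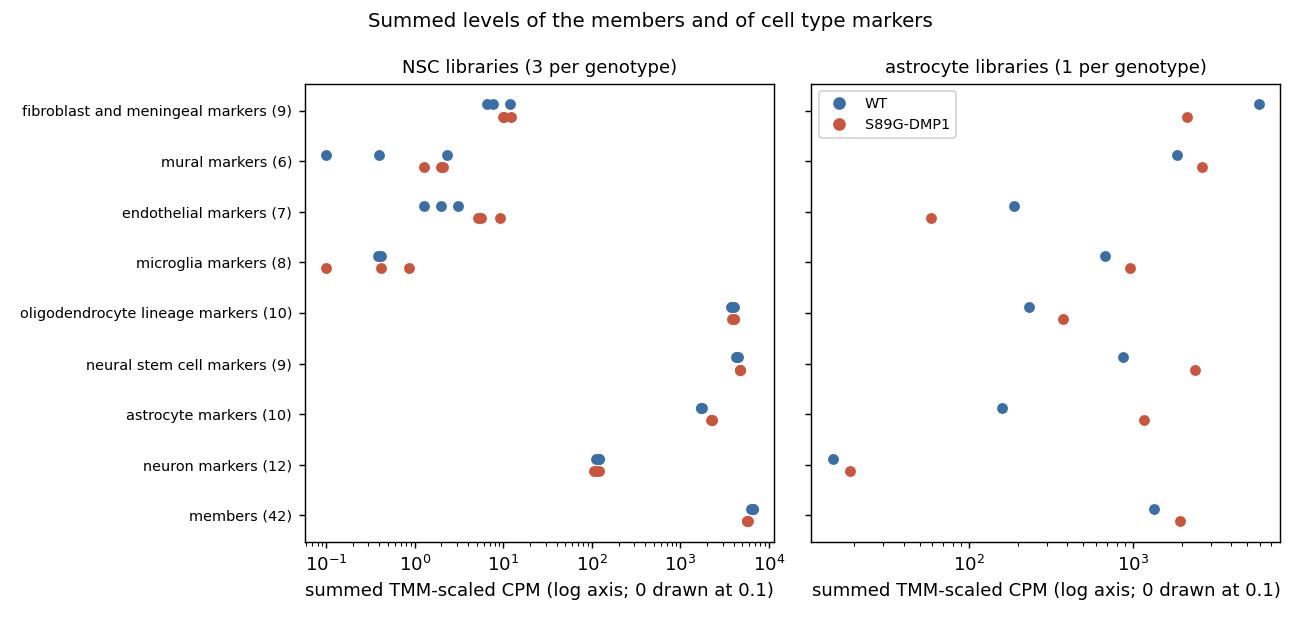
Summed TMM-scaled CPM (x axes, log scale) of the 42 genes and of markers of 8 cell types (y axis, with the number of genes), in the 6 NSC libraries (left) and the 2 astrocyte libraries (right). In the astrocyte libraries, astrocyte markers were at 160 CPM (WT) against 1170 CPM (S89G-DMP1), and fibroblast and meningeal markers at 5918 and 2141 CPM.

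In astrocytes, more of the genes were higher than lower in the S89G-DMP1 library. A gene was considered if one of the libraries held 10 or more of its reads, which 39 genes met. In S89G-DMP1, 15 of them were higher by 2-fold or more, 7 were lower by as much and 17 changed less. Among all 15680 genes considered, 17.3% were higher and 12.8% lower by that rule. The median log2 ratio of the 39 genes was 0.66, and that of all genes was 0.01. With scaling by library size alone those medians were 0.95 and 0.30. NSC markers summed to 879 CPM in the WT astrocyte library against 2409 CPM in S89G-DMP1, and endothelial markers to 189 against 59.0 CPM. As the 2 libraries also differed in markers of astrocytes, fibroblasts and microglia, genotype and culture cannot be told apart here.

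Of the 10 vesicle and calcium-sensor genes, 4 were at least 2-fold higher in S89G-DMP1 astrocytes, 1 was lower by as much and 5 changed less. Syn2 was counted 13 times in WT and 384 times in S89G-DMP1 astrocytes, a ratio of 26.0 with a 95% interval of 15.0 to 49.2 that covers counting error only. Syt1 had 3 and 69 counts, a ratio of 20.2 (counting interval 6.64 to 101), and Syt11 had 586 and 4213, a ratio of 6.32. Sv2a, at 63 and 189 counts, was 2.64-fold higher. Rab3b went the other way, with 350 counts in WT and 63 in S89G-DMP1, 6.32-fold lower (counting interval 4.82 to 8.40). Vamp2, Vamp1, Syn1, Rab3a and Syp changed less than 2-fold, and Vamp2 at 1081 and 1484 counts was well covered.

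Fusion machinery and postsynaptic genes stayed under 2-fold in the astrocyte libraries where they were counted often enough. Cplx1 had 0 counts in both libraries and Snap25 had 1 in WT and 4 in S89G-DMP1, too few to compare. Cplx2 had 728 and 1306 counts, 1.58-fold higher, and Stx1a had 158 and 106, 1.69-fold lower. The 4 postsynaptic genes were all higher in S89G-DMP1 and all by less than 2-fold. Their log2 ratios were 0.92 for Camk2a (1.91-fold), 0.60 for Dlg4, 0.35 for Homer1 and 0.33 for Camk2b. With scaling by library size alone, the log2 ratio of Camk2a was 1.21, past 2-fold.

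Among adhesion genes, Elfn1 had 66 counts in WT and 2054 in S89G-DMP1, a ratio of 27.4 (counting interval 21.4 to 35.5). Flrt1 had 37 and 182 counts, Nlgn3 had 11 and 62, and Nrxn3 had 4 and 39. Those 4 genes were more than 4-fold higher, while Olfm1, at 1181 and 483 counts, was 2.78-fold lower. Nrxn2, Nlgn1 and Nlgn2 differed by less than 2-fold, with 431 and 496 counts for Nrxn2.

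Ache was lower in the S89G-DMP1 astrocyte library, at 212 counts in WT and 25 in S89G-DMP1, which is 9.64-fold (counting interval 6.35 to 15.2). Gad2 had 1 count in WT and 19 in S89G-DMP1, a ratio of 16.7 with a counting interval of 2.66 to 694. Gad1 stayed low, at 4 and 11 counts. Both GABA enzymes were thus near the limit of detection in the WT library.

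The 7 cytoskeletal and growth genes considered all differed by 2-fold or more. Map2 was counted 105 times in WT and 2772 times in S89G-DMP1 astrocytes, a ratio of 23.2 (counting interval 19.1 to 28.5), and Gap43 5 and 160 times, a ratio of 28.1 (11.8 to 87.9). Stmn2, absent from NSCs apart from 1 count, had 272 counts in WT and 1195 in S89G-DMP1, and Basp1 had 1558 and 4407. The other 3 were lower in S89G-DMP1. Ndrg4 had 2815 and 1007 counts, Tubb3 had 850 and 280, and Eef1a2 had 87 and 46. With scaling by library size alone, Eef1a2 was under 2-fold (log2 -0.79).

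All 5 dense-core vesicle genes could be considered in the astrocyte libraries. Scg2 had 81 counts in WT and 689 in S89G-DMP1, a ratio of 7.48 (counting interval 5.94 to 9.54), and Chga had 2 and 14. Vgf had 359 and 809 counts, just under 2-fold, and Chgb 15 and 28. Ptprn, at 1854 counts in WT and 645 in S89G-DMP1, was 3.27-fold lower. Per length, Ptprn was the highest of the 42 genes in the WT library, at 144 RPKM (reads per kilobase, scaled to library size), followed by Ndrg4 at 135 and Vamp2 at 79.1 RPKM. Basp1 at 166, Syt11 at 98.5 and Vamp2 at 95.5 RPKM led in the S89G-DMP1 library. The length used for Ptprn was 1015 bases, against 4249 annotated exon bases, so that its first place in WT is uncertain.

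**Figure D4:**
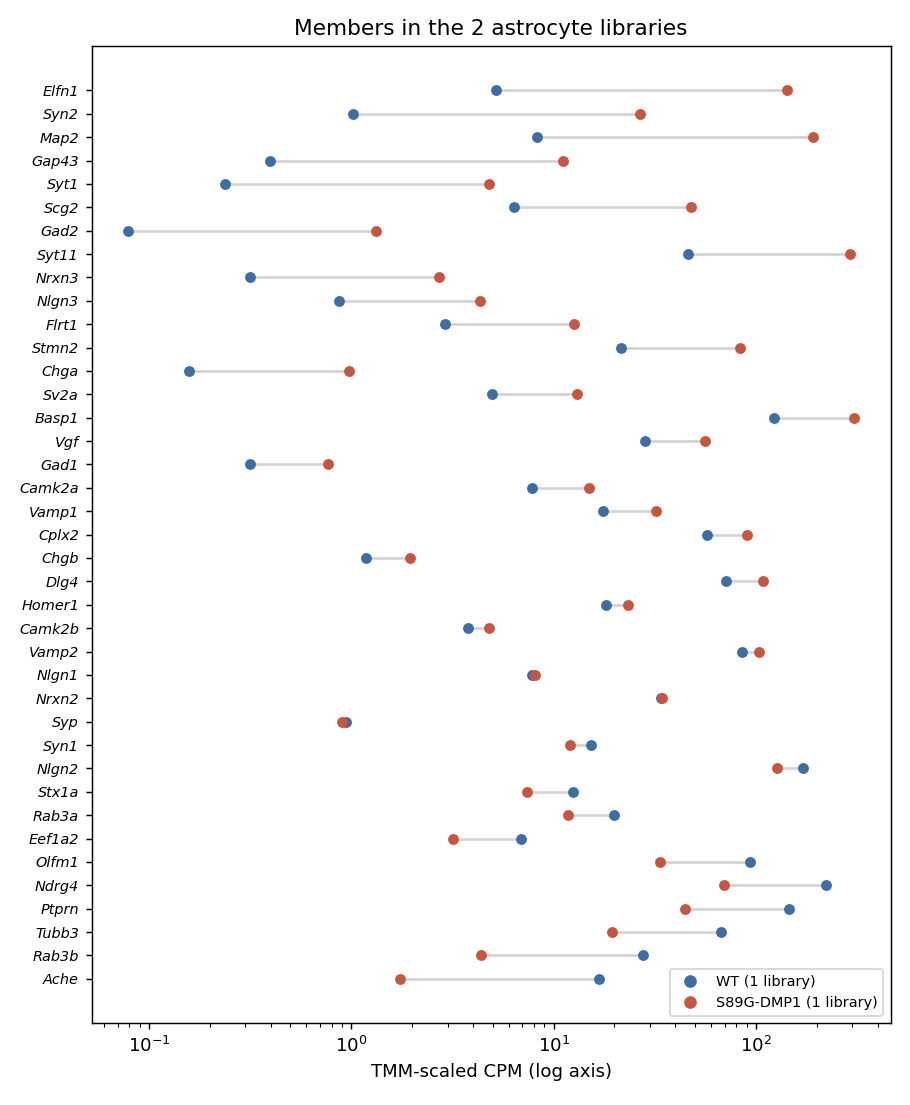
TMM-scaled CPM (x axis, log scale) of the 39 genes considered in astrocytes, WT in blue and S89G-DMP1 in red (1 library each), ordered by log2 ratio. The S89G-DMP1 point lies at least 2-fold to the right for 15 genes, led by Elfn1, and at least 2-fold to the left for 7, led by Ache.

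The RefSeq promoter windows (GRCm38.p6, 250 bases before to 50 after a start site) covered 33 of the 42 genes in 48 windows. The cAMP response element, with the letters TGACGTCA on either strand, was found in 3 of the 48 windows (6.25%) and in 588 of 32851 windows of all genes (1.79%). Its shorter core TGACG, contained in it and searched on both strands, was in 14 of the 48 (29.2%) and in 20.8% of all windows. The RE1 element of the repressor REST was in 0 of the 48 and in 0.0639% of all. At so low a share a match among 48 windows was hardly possible, so the 0 says nothing about these genes. The 3 windows with the whole element are shown because they belong to 2 granins and a synapsin, with the element in capitals and 11 bases on each side, 5′ to 3′ along the gene.
Scg2 (chr1:79440076-79440105, minus strand): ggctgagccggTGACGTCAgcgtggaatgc
Chgb (chr2:132781559-132781588, plus strand): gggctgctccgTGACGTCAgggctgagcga
Syn1 (chrX:20921059-20921088, minus strand): caaaggctgacTGACGTCActcactagccc

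The element ends 60 bases before the RefSeq start site of Scg2, 64 before that of Chgb and 151 before that of Syn1. In the GENCODE annotation the Scg2 and Chgb stretches lie in an exon of the gene, and the Syn1 stretch lies outside its exons. The 3 genes shared no pattern in the data. Syn1 fell in NSCs and was at 194 counts in WT and 173 in S89G-DMP1 astrocytes, Scg2 was 7.48-fold higher in S89G-DMP1 astrocytes, and Chgb had 15 and 28 counts. A match of letters is a description and does not show binding.

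Other genes of the pathways differed in astrocytes as well. Of 184 considered, 65 were higher in S89G-DMP1 by 2-fold or more and 29 lower by as much, with a median log2 ratio of 0.27, where 17.3% of all genes considered were higher and 12.8% lower. The share that was lower is near that of all genes. The adhesion list stood highest, with 20 of 30 genes at least 2-fold higher. Lrrc4b, a leucine-rich repeat adhesion protein of synapses, had 5 counts in WT and 624 in S89G-DMP1, and Gria1, a subunit of AMPA receptors, had 1 and 2753. Scg3, a granin-binding protein, had 10 and 332 counts, and the GABA transporter Slc6a11 had 0 and 33, at least 9.68-fold higher against a floor of 3 counts in the WT library. Lower in S89G-DMP1 were Syt13, at 680 and 51 counts, and the opioid peptide precursor Penk, at 66 and 4. Oligodendrocyte-lineage factors moved in the same libraries, with 4 and 2691 counts of Olig1 and 3 and 782 of Olig2, and their part in these ratios was not tested.

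Set side by side, the NSC and astrocyte comparisons gave the same direction for some genes and opposite directions for others. Of the 16 genes that fell in NSCs, 7 were at least 2-fold higher in S89G-DMP1 astrocytes, namely Syt1, Syt11, Sv2a, Syn2, Flrt1, Elfn1 and Gap43. A further 6 were at least 2-fold lower there, namely Rab3b, Olfm1, Ache, Ndrg4, Eef1a2 and Ptprn. With scaling by library size alone, Eef1a2 was under 2-fold. Syn1, Nrxn2 and Nlgn2 changed less than 2-fold in astrocytes. Of the 2 genes that rose in NSCs, Basp1 was 2.49-fold higher in S89G-DMP1 astrocytes and Camk2a 1.91-fold. With 1 astrocyte library per genotype, the difference between cell types was not tested.

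**Figure D5:**
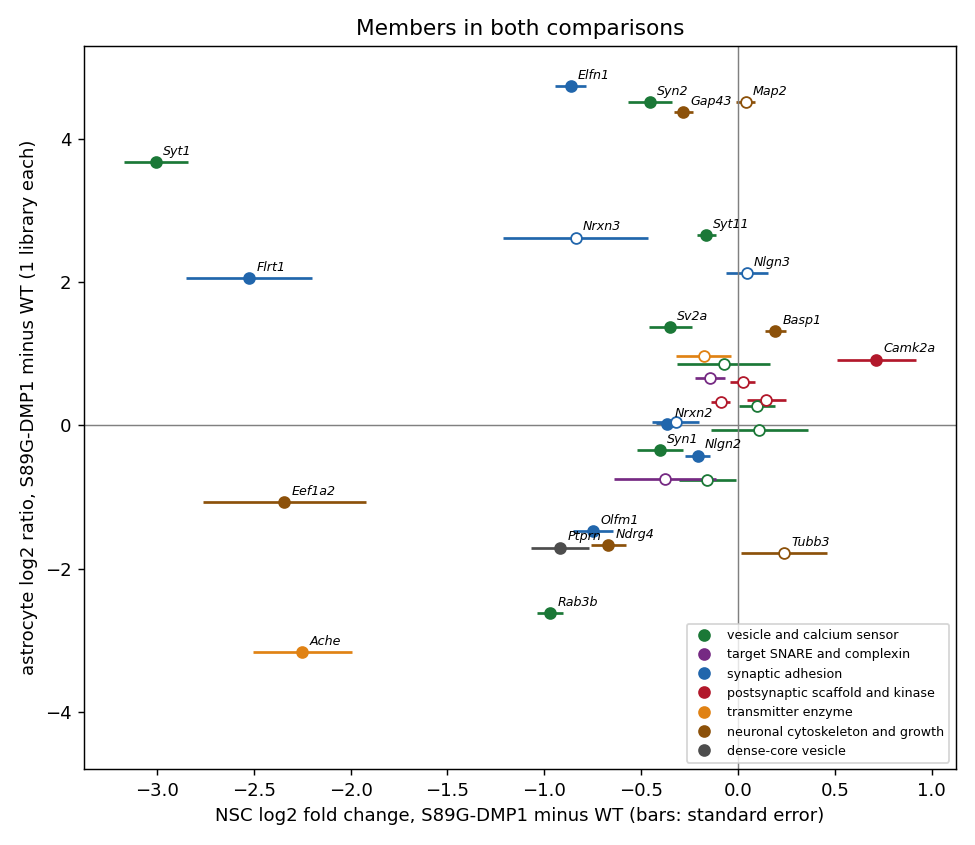
NSC log2 fold change with bars of 1 standard error (x axis) against the astrocyte log2 ratio, 1 library per genotype (y axis), both S89G-DMP1 minus WT, for the genes measured in both; colours give the role, filled points passed the NSC test, and names mark genes past that test or past 2-fold in astrocytes. Genes that fell in NSCs lie both above and below 0 on the y axis, from Elfn1 at 4.74 to Ache at -3.16.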

How the data were processed

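For the NSCs the authors deposited raw counts per gene and TPM values, and for the astrocytes raw counts and FPKM values. The submitters' processing notes name HISAT2, StringTie and featureCounts with the build GRCm38 for the NSC samples, and Bowtie2 2.0.6 and TopHat2 2.0.9 for the astrocyte samples, after removal of adapter and low-quality reads. The astrocyte counting program and build, and the strand setting of either count, are not given in the sources used here.

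Genes and lists were chosen with earlier results of these data known. NSC counts were filtered with filterByExpr, TMM-scaled and tested with edgeR 4.0.16 (R 4.3.3), genotype the only term, Benjamini-Hochberg adjusted over 11194 genes. Alternatives used DESeq2 1.42.0, other scalings and filters, limma 3.58.1 on TPM, and each library left out. Astrocyte log2 ratios, untested, were taken between TMM-scaled CPM values after adding a prior of 2 counts. A fold of linear CPM stands beside counts. Levels per length used the gene length implied by the authors' FPKM. Intervals (95%, binomial) and floors of 3 counts cover counting error only. The edgeR script was tested on simulated data.

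Any of the 42 genes could be named. From each pathway list, up to 5 genes with the largest change among those called in NSCs and up to 3 with the largest astrocyte ratio could be named, besides cell type markers and Dmp1. Some genes that this rule allowed are not reported here. An exact permutation test of 3 against 3 libraries cannot go below a p of 0.1, so none was used.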

Additional observations from a re-analysis of the deposited data

Results flagged for a closer look

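Of the genes that fell in NSCs, 7 had the opposite direction in astrocytes by 2-fold or more. For each, every S89G-DMP1 NSC library lay below every WT one, and the S89G-DMP1 astrocyte library lay above the WT one. The log2 values in astrocytes and NSCs were 3.68 and -3.00 for Syt1, 2.66 and -0.17 for Syt11, 1.37 and -0.35 for Sv2a, 4.51 and -0.45 for Syn2, 2.06 and -2.52 for Flrt1, 4.74 and -0.86 for Elfn1, and 4.38 and -0.28 for Gap43. The difference was not tested, since each astrocyte genotype is 1 library.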

How the results depend on the processing

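Among the 42 genes, 16 were called lower in NSCs, 12 to 16 with 1 library left out (16 without S89G-DMP1 replicate 3, where Nlgn2 was lost and Nlgn1 gained), and 4 or 3 with limma on log2(TPM + 1) or log2(TPM + 0.1). Of the 2 called higher, it was 1 with DESeq2, 1 to 2 with 1 library left out and 0 with either TPM setting, while 12 of the 18 calls held in all 6 fits with 1 library left out. For the other pathway genes, 28 lower and 13 higher became 14 and 6 with DESeq2, 4 and 1 with either TPM setting, and 20 to 30 and 8 to 14 with 1 library left out. The number of the libraries did not pair them, as the deviations of same-numbered libraries correlated at 0.028, -0.0099 and -0.017. With the replicate number as a block, 17 genes were lower and 2 higher, the addition being Nlgn1 (log2 -0.32, edgeR adjusted p 0.0439), and 29 and 14 of the other pathway genes. At a 4-fold limit, 2 genes in astrocytes were lower in place of 7, and the 15 that were higher became 10 to 19 over the settings tried. The shorter core took the promoter windows with a match from 3 to 14. Signs turned for some genes that were not called: Gad1 at 0.14 and 0.15 on the 2 TPM scales, and, with 1 library left out, Syp (-0.10 to 0.38, negative without S89G-DMP1 replicate 2), Vamp1 (-0.20 to 0.0697, positive without WT replicate 1), Dlg4 (-0.0214 to 0.0807, negative without S89G-DMP1 replicate 1), Map2 (-0.0086 to 0.0916, negative without WT replicate 2) and Nlgn3 (-0.0048 to 0.14, negative in 3 fits at -0.0003, -0.0048 and -0.0022). The cause was not tested. The TPM settings are limited by deposited values of 0 for well counted genes such as Olig1. Depth limits the granins, Gad2, Dcx and Stmn2 in NSCs.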
